A study of Mus musculus with 14 samples.

Results

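Imprinted growth control genes were followed here through the populations that lead from aortic endothelium to blood in the mouse embryo. The set has 10 genes, selected by symbol with results of these data in view: the growth factor gene Igf2, the non-coding RNA genes H19 and Meg3, and Cdkn1c, Grb10, Plagl1, Dlk1, Mest, Nnat and Peg3. All 10 have an entry in each of the deposited tables, among 19322 entries of the E10 single-cell table, 19424 of the E11 single-cell table and 19425 of the table of whole clusters, 90 of which are spike-ins. Because the genes were chosen with their values known, their levels are a description, and no p-value given here supports the choice.

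The study profiled cells and cell clusters of the aorta-gonad-mesonephros (AGM) region by CEL-Seq, which counts transcripts by a molecular tag at their 3′ end. E10 embryos had 28 to 32 somite pairs and E11 embryos had over 40, and AGM regions were pooled before sorting. The endothelial groups came from ICR mice of genotype Gfi+/tomato/ Gfi1b+/GFP: non-haemogenic endothelium (non-HE, Cdh5+ Gfi1- Gfi1b- c-kit-), haemogenic endothelium (HE, Cdh5+ Gfi1+ Gfi1b- c-kit-) and cells in endothelial-to-haematopoietic transition (EHT, Cdh5+ Gfi1+ Gfi1b- c-kit+). The other groups were C57BL/6 WT: cells of intra-aortic haematopoietic clusters (IAHCs), sorted as c-kit+ CD31+ at both stages and also as c-kit+ at E11; E11 pre-HSCs (c-kit+ Cdh5+, index-sorted for CD45 and named type I and type II in the table's columns); c-kit+ cells of the yolk sac (YS); and whole IAHCs (wIAHCs, c-kit+) picked singly from slices with their dorsal or ventral place recorded. Strain and reporter genotype therefore change together with the step from EHT to IAHC cells, and cannot be told apart from it. The columns of the E10 non-HE cells carry a name for early E11, while their sample label gives E10.

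In genomic imprinting, marks set in the parents' germ cells leave a gene active mainly from the maternal or mainly from the paternal copy. Many imprinted genes act on growth: Igf2, Mest, Dlk1, Peg3 and Plagl1 are read mainly from the paternal copy, and H19, Cdkn1c, Meg3 and, in most tissues, Grb10 mainly from the maternal one, and several restrain growth. In adult bone marrow, H19 and Cdkn1c are known for keeping haematopoietic stem cells quiescent. These tables count both parental copies together, so nothing here measures imprinting itself.

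The E10 table holds 546 cells with 3000 transcripts each, and 575 cells with 5000 each are in the E11 one, in 13 populations and 30 sorted sets (plates or plate parts, read from the column names). A level is given as transcripts per 5000, summed over the cells of a population. Each transcript gives 1 tag whatever its length, so levels of different genes can be set side by side without a correction for length. Other differences between genes in how their transcripts are counted were not checked. The populations come from 12 deposited samples of pooled embryos, 1 for each but for the pre-HSCs, whose types I and II share 1, so no test between populations was possible, and the 95% intervals (in brackets) cover counting error only. The spread over sorted sets is given for the largest contrasts and drawn for every level in the plot of levels. E10 IAHC, E11 HE, E11 EHT and E11 YS cells were 1 sorted set each, so steps to or from them are also differences between sets.

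The 10 genes lie on 6 chromosomes, with 4 on chromosome 7 and 2 on chromosome 12. H19 and Igf2 are neighbours on chromosome 7, 72.6 kb apart on the minus strand, and Dlk1 and Meg3 are neighbours on chromosome 12, 77.7 kb apart on the plus strand. Cdkn1c lies 792 kb from Igf2 on the same strand. H19, Igf2 and Mest also host microRNAs. Their mature sequences are shown because these are short RNAs the host transcripts give rise to and that a 3′ tag does not count. The transcript counts say nothing of their levels. Meg3 also overlaps microRNA genes on its own strand, Mir770 and Mir1906-1, whose sequences are not shown. The sequences are from RefSeq (GRCm38.p6), 5′ to 3′, with the seed (bases 2 to 8) in capitals; the 6 seeds all differ.
miR-675-5p (H19, chr7:142577112-142577133, minus strand): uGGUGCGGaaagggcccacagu
miR-675-3p (H19, chr7:142577078-142577099, minus strand): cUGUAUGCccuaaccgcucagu
miR-483-5p (Igf2, chr7:142654968-142654989, minus strand): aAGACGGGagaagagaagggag
miR-483-3p (Igf2, chr7:142654932-142654952, minus strand): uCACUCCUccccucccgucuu
miR-335-5p (Mest, chr6:30741314-30741336, plus strand): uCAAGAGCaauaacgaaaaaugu
miR-335-3p (Mest, chr6:30741354-30741375, plus strand): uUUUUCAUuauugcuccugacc

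H19 and Igf2 dominated the set. Together they made up between 73.5% (E11 YS) and 93.2% (E11 type II pre-HSCs) of the transcripts of the 10 genes in the 13 populations, and the 10 genes together took 3.79% of all transcripts in E10 non-HE cells and 0.104% in E10 YS cells. H19 and Igf2 ranked 1 and 2 of all genes by transcripts in E10 non-HE, E11 non-HE and E11 HE cells, and Igf2 ranked 1 and H19 ranked 3 in E10 HE cells. In YS cells their ranks were 394 and 525 at E10, and 178 and 247 at E11.

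H19, a long non-coding RNA that restrains growth and is the host of miR-675, stood at 84.0 [80.5, 87.6] for E10 non-HE, 45.5 [43.8, 47.2] for HE, 25.8 [24.9, 26.7] for EHT, 25.3 [23.8, 26.8] for IAHC and 2.21 [1.905, 2.55] for YS cells. It was thus highest in endothelium without haemogenic markers, about equal in EHT and IAHC cells, and lowest in the yolk sac. E11 levels were 72.4 [69.4, 75.5] for non-HE, 63.5 [61.2, 65.9] for HE and 32.4 [30.8, 34.1] for EHT cells, with 32.6 [31.2, 34.1] in type I and 22.3 [21.1, 23.6] in type II pre-HSCs. The c-kit+ CD31+ IAHC cells had 26.2 [25.5, 26.9], the c-kit+ IAHC cells 17.98 [17.1, 18.9] and YS cells 3.65 [3.12, 4.25]. Sorted sets differed by more than counting error: E10 HE sets lay at 39.7 and 55.0, and the 5 c-kit+ IAHC sets between 9.71 and 22.3. Even so, the E10 non-HE sets (79.8 and 92), the HE sets and the EHT sets (23.8 to 28.1) did not overlap one another. In the order of the 13 H19 levels, 3 of the 12 neighbouring pairs had overlapping intervals.

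Igf2, the fetal insulin-like growth factor that signals through Igf1r and is cleared by Igf2r, had at E10 a level of 83.8 in non-HE, 47.1 in HE, 32.0 in EHT, 19.36 in IAHC and 1.797 in YS cells. At E11 the levels were 52.9 in non-HE, 51.6 in HE, 31.8 in EHT, 23.98 in type I and 18.6 in type II pre-HSCs. They were 18.98 in c-kit+ CD31+ IAHC cells, 12.9 in c-kit+ IAHC cells and 2.78 in YS cells. The E10 sets lay at 81.0 and 89.0 for non-HE, 39.4 and 59.9 for HE and 29.8 to 34.1 for EHT cells. As with H19, endothelium was highest and the yolk sac lowest at both stages, and 4 of the 12 neighbouring pairs in the order had overlapping intervals. From HE to EHT cells the log2 ratio of H19 was -0.82 [-0.89, -0.74] at E10 and, for the E11 cells, -0.97 [-1.06, -0.88], and that of Igf2 was -0.56 [-0.63, -0.49] and -0.70 [-0.79, -0.60]. Log2 ratios carry a pseudocount of 0.1 per 5000 transcripts, and their intervals carry none. Most AGM cells held each of them: with cells thinned to 3000 transcripts, the share with an H19 transcript and the share with an Igf2 transcript were at least 89.9% in each of the 11 AGM populations. Both were found in 78 of 89 E11 c-kit+ IAHC cells. In YS cells it was 41.8% for H19 and 27.7% for Igf2 at E10, and 69.6% and 52.2% at E11 (unthinned 80.4% and 56.5%).

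**Figure D1:**
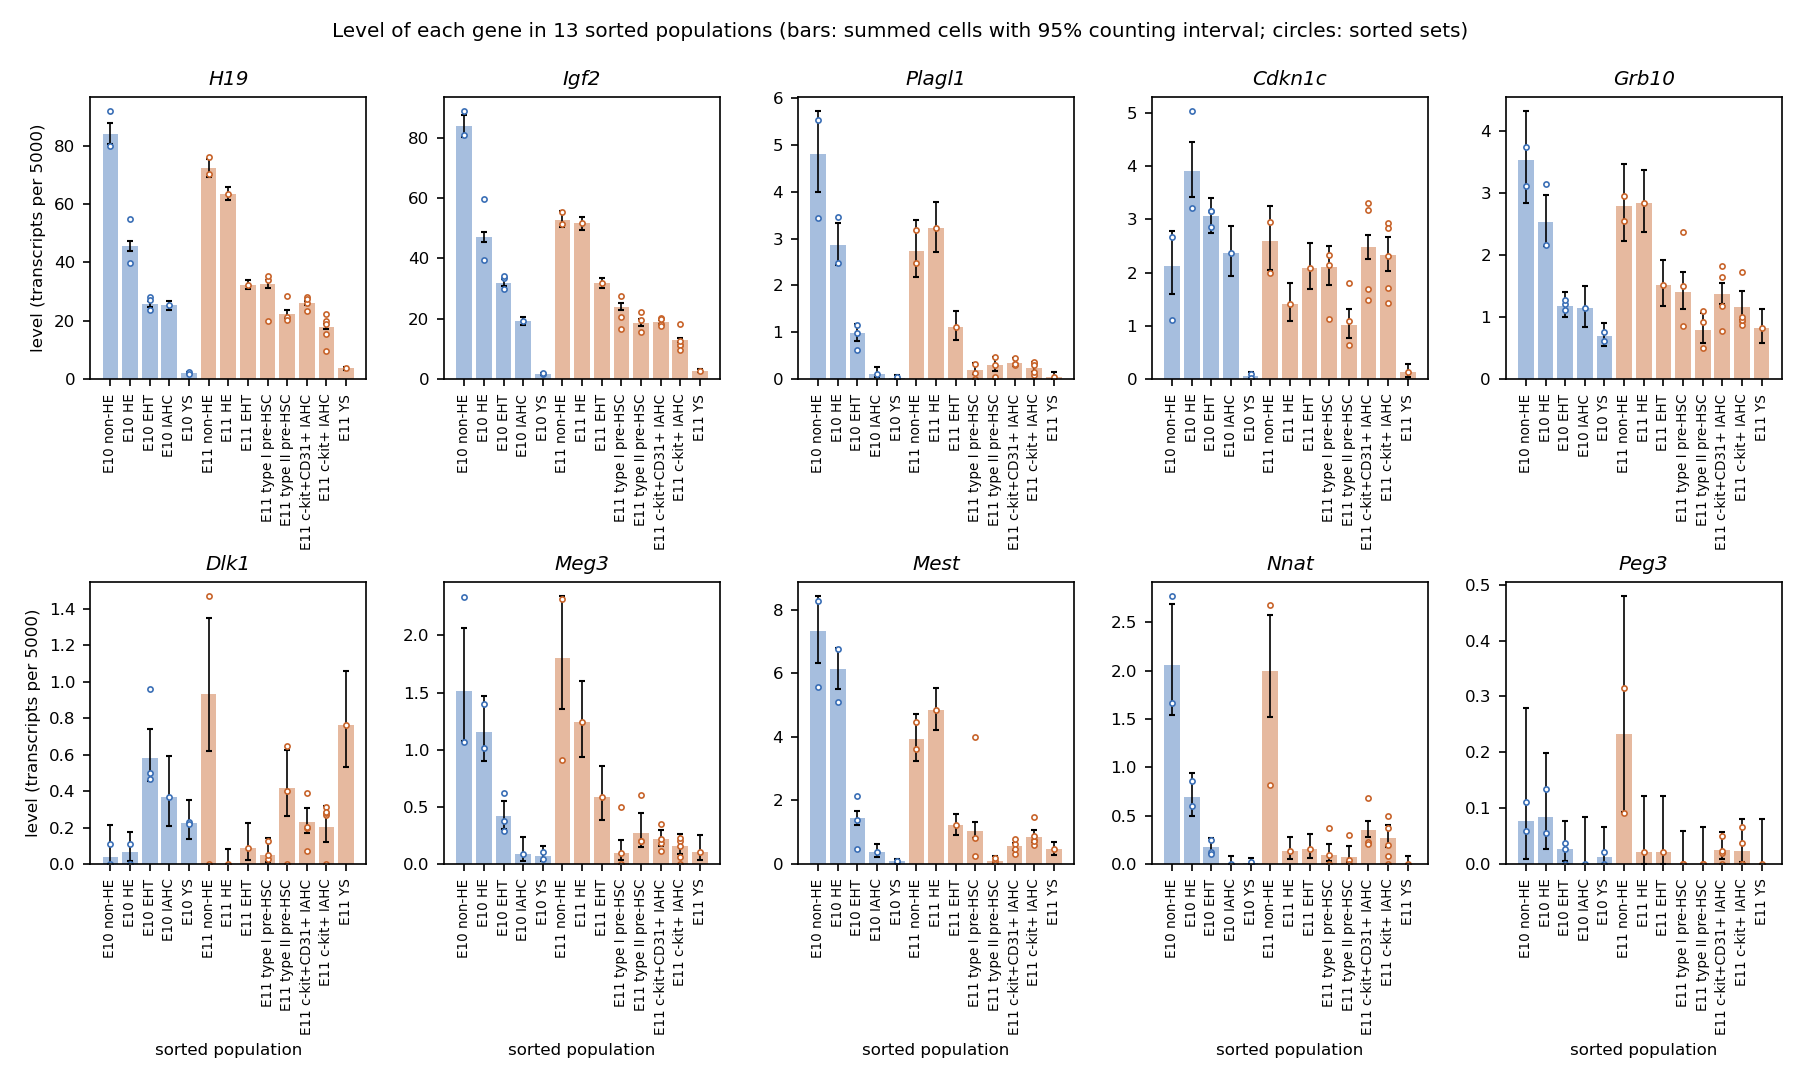
Level (transcripts per 5000) of each of the 10 genes in the 13 sorted populations, E10 in blue and E11 in orange; bars sum all cells, lines are 95% counting intervals and circles are sorted sets. H19 and Igf2 stand near 84 in E10 non-HE cells and under 4 in both yolk sac populations, while Cdkn1c stays between 1.02 and 3.91 in all AGM populations and under 0.14 in the yolk sac.

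The balance between the neighbours H19 and Igf2 moved far less than their levels. Of the H19 and Igf2 transcripts of E10 cells, H19 made up 50.1% [48.6, 51.6] (non-HE), 49.1% [47.8, 50.5] (HE), 44.7% [43.4, 45.9] (EHT) and 56.6% [54.4, 58.8] (IAHC). At E11 its share was 57.8% (non-HE), 55.2% (HE) and 50.5% (EHT), then 57.6% and 54.5% in type I and type II pre-HSCs, and 58.0% and 58.3% in the c-kit+ CD31+ and c-kit+ IAHC sorts. EHT cells therefore had the lowest H19 share at each stage, and the 3 E10 EHT sets (44.3% to 45.7%) lay below all sets of the other E10 populations. Sets of 1 population could differ by more than this, from 50% to 63.7% among the 5 c-kit+ IAHC sets. The E11 EHT cells were 1 set, at 50.5% [48.6, 52.3]. The lowest c-kit+ IAHC set lay below it, and a type II pre-HSC set at 52.05% lay inside its interval. Within populations, cells with more H19 also held more Igf2: Pearson's r over cells was lowest in E11 HE cells (0.237) and highest in the E10 non-HE population (0.810), a description over cells of equal depth that share a sort.

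**Figure D2:**
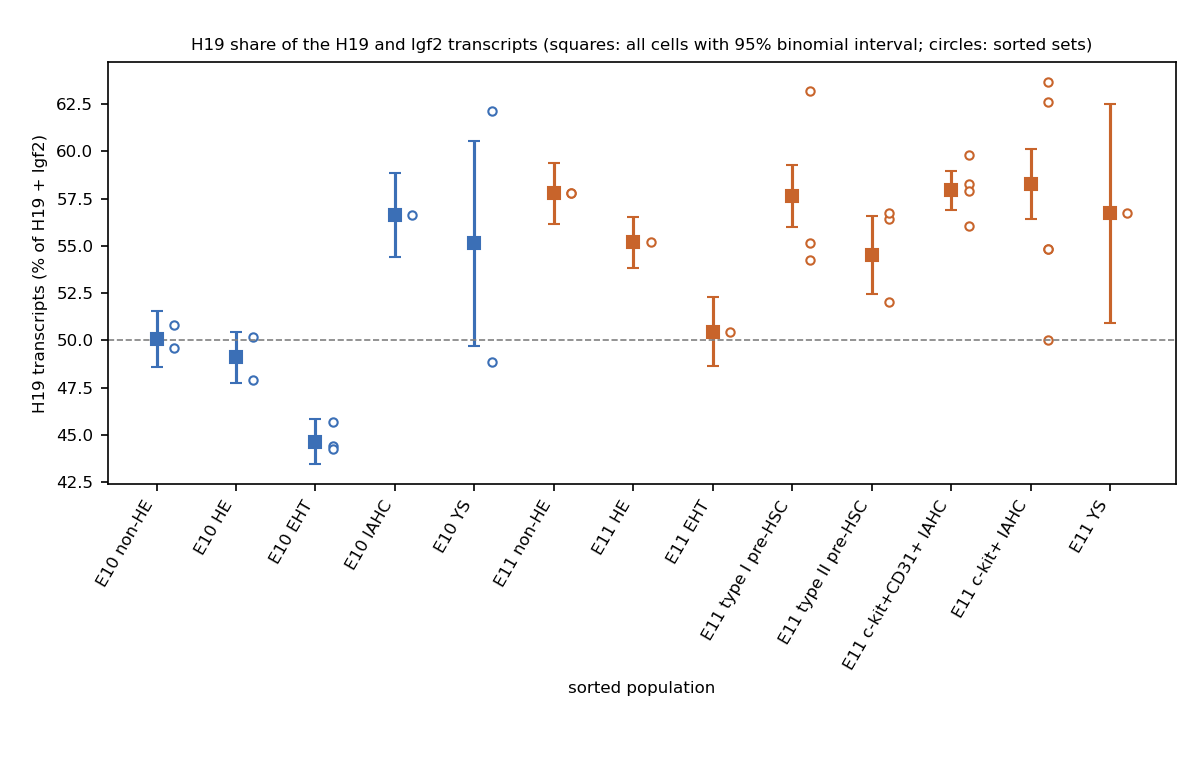
H19 as a percentage of the summed H19 and Igf2 transcripts in each population, with 95% binomial intervals (squares) and single sorted sets (circles). EHT cells are lowest at each stage, at 44.7% at E10 and 50.5% at E11, and the dashed line marks equal amounts.

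Markers of endothelium were also highest in non-HE and HE cells and lowest in the yolk sac. The summed level of 10 endothelial markers, all present in every AGM population, was 64.1, 47.99, 14.9 and 10.2 in E10 non-HE, HE, EHT and IAHC cells, with Vwf, Gja5, Cdh5 and Egfl7 the most abundant in turn. In E10 YS cells 7 of the 10 were present with a sum of 1.66, and Kdr, Cldn5 and Gja5 were at 0. At E11 the sum was 45.97, 54.6 and 19.22 in non-HE, HE and EHT cells, 11.9 and 6.51 in type I and type II pre-HSCs, 11.52 and 7.14 in the IAHC sorts, and 2.78 in YS cells, where Gja5 and Gja4 were at 0. Single steps differed: from E11 non-HE to HE cells the sum rose while H19 fell, and from EHT cells to E10 IAHC cells or E11 type I pre-HSCs it fell while H19 hardly moved. The sum of 10 haematopoietic markers was 0.465 in E10 non-HE cells (7 of 10 present; Sfpi1, Mpo and Gfi1b at 0), 3.49 in HE, 13.7 in EHT and 16.4 in IAHC cells, with Gpr56 the most abundant from HE cells on, and 15.3 in YS cells, where H19 was lowest. At E11 it was 0.333 in non-HE cells (2 of 10 present, Kit the higher, with Runx1 and Ptprc among those at 0) and 1.87 in HE cells (5 present). From EHT cells on it lay between 10.4 and 12.9 in all 6 E11 populations, the yolk sac included, while H19 and Igf2 differed among them. The sum of 15 mesenchymal markers was 2.52, 1.38, 0.367, 0.320 and 0.154 in E10 non-HE, HE, EHT, IAHC and YS cells. At E11 it was 2.67, 2.04 and 0.674 in non-HE, HE and EHT cells, and 0.174 in YS cells. In the E11 pre-HSC and IAHC populations it lay between 0.509 and 2.11. At least 2 of the 15 were found in 10 of 43 non-HE, 11 of 98 HE and 3 of 191 EHT cells at E10. At E11, with more transcripts a cell, they were found in 14 of 30, 16 of 46 and 3 of 46. The part of these markers in the levels of the imprinted genes was not tested.

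Plagl1, a zinc finger transcription factor that holds back cell division and acts on other imprinted genes, including Igf2 and H19, fell further than H19 after the HE stage. Its level was 4.81 [3.998, 5.73] in E10 non-HE, 2.86 in HE, 0.986 in EHT, 0.114 in IAHC and 0.0236 in YS cells, and at E11 it was 2.73, 3.22 and 1.109 in non-HE, HE and EHT cells. In the 4 E11 pre-HSC and IAHC populations it lay between 0.194 and 0.348, and in E11 YS cells at 0.0435. The share of cells with a Plagl1 transcript was 79.6% in E10 HE and 91.3% in E11 HE cells, 36.1% and 39.1% in EHT cells, and 6.85% in E10 IAHC cells (E11 unthinned: 93.5% in HE and 47.8% in EHT cells). From E10 EHT to IAHC cells its log2 ratio was -2.34 (-1.27 with a pseudocount of 0.5), where that of H19 was -0.03. Plagl1 was low where H19 and Igf2 were still among the most abundant transcripts: in E10 IAHC cells, H19 ranked 9 and Igf2 ranked 14 of 10609 genes with a transcript.

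Cdkn1c, the cyclin-dependent kinase inhibitor p57, was the only member of the 10 with its highest level in HE cells. Over the 13 populations its log2 levels correlated with those of Igf2 (Pearson's r 0.861) and H19 (0.86). All 3 genes were lowest in the yolk sac at both stages, and a correlation over the AGM populations alone was not tested. Its level at E10 was 2.13 [1.61, 2.78] in non-HE, 3.91 [3.42, 4.45] in HE, 3.06 [2.751, 3.40] in EHT, 2.37 [1.94, 2.88] in IAHC and 0.0591 [0.0192, 0.138] in YS cells. The HE sets lay at 3.22 and 5.05 and the EHT sets at 2.87 to 3.17. It was highest in E10 HE cells, where 80.6% of cells held a transcript, and nearly absent from the yolk sac, where 3.55% did. At E11 it was 2.6 in non-HE, 1.413 in HE, 2.09 in EHT, 2.11 in type I and 1.02 in type II pre-HSCs, 2.48 and 2.34 in the c-kit+ CD31+ and c-kit+ IAHC sorts, and 0.130 in YS cells. The step from non-HE to HE cells thus had opposite signs at the stages, with a log2 ratio of 0.85 at E10 and -0.84 at E11, and so had the step from HE to EHT cells, at -0.34 and 0.53. Of the 78 transcripts in E11 non-HE cells, 23 came from 1 cell, and the median cell held 1 in both E11 non-HE and E11 HE cells. Intervals of 10 of the 12 neighbouring pairs in the order overlapped. The other kinase inhibitors of the same family were lower in all 11 AGM populations, with Cdkn1a at most 0.239 and Cdkn1b at most 0.435. In the yolk sac Cdkn1b was lower too, at 0.0236 and 0.0870 at E10 and E11, but Cdkn1a equalled Cdkn1c at E10, with 5 transcripts each, and was 0.152 at E11. All 7 Cdkn1a transcripts of the E11 YS cells came from 1 cell, and 5 of their 6 Cdkn1c transcripts came from 1 cell, so single cells set this comparison.

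Single cells carried Cdkn1c unevenly in E11 IAHCs. The highest cells held 33 and 35 of 5000 transcripts in the c-kit+ CD31+ and c-kit+ sorts, against 6 of 3000 in E10 IAHC cells, which is 10 per 5000. The variance over the mean was 7.47 and 6.85, against 1.5 at the lower E10 depth, and it grows with depth. The study names Cdkn1c as a marker of haematopoietic cells in patches under the aorta. It describes its IAHC cells as those with over 1 Gpr56 transcript and at most 2 of any non-IAHC gene, and does not list these genes. The rule was applied here with 11 genes from its text. With Cdkn1c left off that list, 259 of 290 E11 IAHC cells passed, with a Cdkn1c level of 2.03 (2.43 in all), and 67 of 73 E10 IAHC cells, with 2.46 (2.37 in all). With Cdkn1c on it, 187 and 54 cells passed, and a lower Cdkn1c level is then set by the rule. The choice by Cdkn1c also lowered some other members: in the c-kit+ sort H19 was 11.55 with Cdkn1c on the list and 17.26 without (17.98 in all cells). In the c-kit+ CD31+ sort H19 was 23.95 and 26.97. Mest was 0.310 and 0.413 at E11 (0.648 in all), and 0.124 and 0.348 at E10 (0.388 in all). Others were higher or hardly moved: Dlk1 was 0.209 and 0.185 at E11 and 0.401 and 0.348 at E10. Plagl1 was 0.316 and 0.324 at E11 and 0.154 and 0.124 at E10. Mesenchymal markers were present beside it: 14 of 15 in E11 IAHC cells, summed 1.55 with Sox11 highest and Dcn at 0, and 5 of 15 in E10 IAHC cells, summed 0.320 with Postn highest and Col1a1, Pdgfra, Pdgfrb and Dcn among those at 0. At least 2 of them were found in 98 of 290 E11 and in 2 of 73 E10 IAHC cells, at 5000 and 3000 transcripts a cell, which affects such counts; their part in the Cdkn1c level was not tested.

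Grb10, an adaptor that dampens insulin and Igf1 receptor signalling, was the member least reduced in the yolk sac among those highest in non-HE cells at E10. Its level was 3.53 in E10 non-HE, 2.53 in HE, 1.19 in EHT, 1.14 in IAHC and 0.697 in YS cells. At E11 it was 2.8, 2.848 and 1.522 in non-HE, HE and EHT cells, between 0.800 and 1.403 in the pre-HSC and IAHC populations, and 0.826 in YS cells. Grb10 was the only one of the 10 genes besides H19 and Igf2 with a transcript in over 25% of YS cells at both stages, at 29.1% and 32.6% (E11 unthinned 41.3%).

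The neighbours Dlk1 and Meg3 did not move together. Meg3, a non-coding RNA, was highest in endothelium, at 1.51 and 1.16 in E10 non-HE and HE cells and 1.8 and 1.239 at E11 (25 of the 54 transcripts in E11 non-HE cells came from 1 cell), and fell to 0.419 and 0.587 in EHT cells and to 0.273 or less in the other 7 populations. Dlk1, a membrane protein of the Notch ligand family that checks differentiation, was low in endothelium at E10, at 0.0388 in non-HE and 0.0680 in HE cells, and higher in EHT cells, at 0.585 [0.453, 0.742]. It was 0.365 in E10 IAHC and 0.225 in E10 YS cells. At E11 it was 0 in HE cells, 0.0870 in EHT cells, 0.0484 and 0.418 in type I and type II pre-HSCs, 0.229 and 0.202 in the IAHC sorts and 0.761 in YS cells. The E11 non-HE value of 0.933 came from 1 of 2 sets, and 27 of its 28 transcripts from 1 cell. Over the 13 populations, Dlk1 alone of the 9 genes with enough transcripts had log2 levels that correlated negatively with those of all others. Pearson's r ran from -0.466 with Grb10 to -0.120 with Nnat, while Meg3 and Plagl1 reached 0.974.

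Mest, an enzyme-like protein of the alpha/beta hydrolase fold, had the steepest fall at the transition among the more abundant of the 10. Its level was 7.33 and 6.14 in E10 non-HE and HE cells, 1.44 in EHT, 0.388 in IAHC and 0.0827 in YS cells. At E11 it was 3.93, 4.85 and 1.217 in non-HE, HE and EHT cells, 1.05 and 0.109 in type I and type II pre-HSCs, 0.552 and 0.865 in the IAHC sorts and 0.457 in YS cells. Of the 21 transcripts in E11 YS cells, 13 came from 1 cell. The log2 ratio of EHT to HE cells was -2.02 [-2.37, -1.82] at E10 and -1.91 [-2.44, -1.57] at E11. The summed mesenchymal markers also fell over this step, from 1.38 to 0.367 at E10 and from 2.04 to 0.674 at E11. Their part in the fall of Mest was not tested. The E10 HE sets lay at 5.09 and 6.78, and the 3 E10 EHT sets from 0.458 to 2.14. The 3 type I sets ran from 0.250 to 4.0, with 20 of the 65 transcripts in 1 cell, and the 3 type II sets from 0 to 0.200. Nnat, a small membrane proteolipid of developing brain that lies inside Blcap on the opposite strand, stood at 2.05 and 2.00 in non-HE and at 0.697 and 0.130 in HE cells of E10 and E11, and was at most 0.353 in the other 9 populations. No Nnat transcript was found in 73 E10 IAHC cells, where 3 transcripts would be a level of 0.0685. Peg3, a zinc finger protein of growth and maternal behaviour, was at most 0.233 in any population and at 0 in 4 of them, so its pattern was not detectable at this depth.

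**Figure D3:**
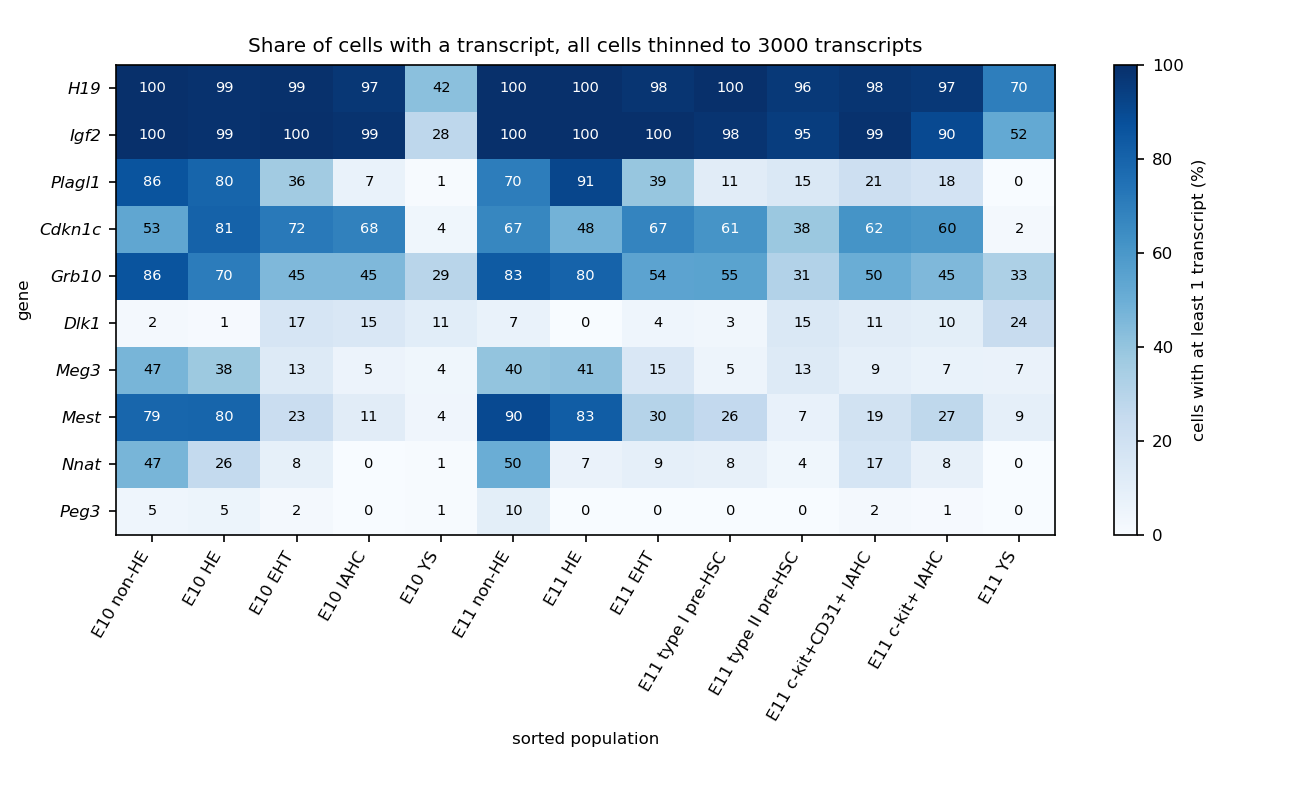
Percentage of cells with at least 1 transcript of each gene in each population, all cells thinned to 3000 transcripts; darker blue is a larger share. Mest falls from 79.6% in E10 HE to 23.04% in E10 EHT cells, while H19 and Igf2 stay at 89.9% or more in all AGM populations.

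With cells thinned to 3000 transcripts, the median cell held transcripts of 6 of the 10 genes in E10 non-HE and HE cells, 4 in EHT cells and 3 in IAHC cells. At E11 the medians were 6 in non-HE, 5.5 in HE and 4 in EHT cells, type I pre-HSCs and both IAHC sorts, and 3 in type II pre-HSCs. In the yolk sac they were 1 and 2, and 48 of 141 cells at E10 and 6 of 46 at E11 held none of the 10. From HE to EHT cells at E10, 5 of the 9 members with a level of 0.5 or more in either population were at least 2-fold lower (Plagl1, Grb10, Meg3, Mest and Nnat), as were 9.81% of 2802 such genes, and 1 (Dlk1) was at least 2-fold higher, as were 4.75%. With a pseudocount of 0.5, only Plagl1 and Mest stayed 2-fold lower, and Dlk1 had a log2 ratio of 0.93. At E11 it was 2 of 7 (Plagl1 and Mest) beside 11.7% of 2554 genes. Against the yolk sac, 3 of 4 members were at least 2-fold higher in E10 IAHC cells beside 7.57% of 2723 genes, and 3 of 6 in E11 IAHC cells of both sorts beside 5.73% of 2130 genes, with Dlk1 at least 2-fold lower there beside 2.07% (log2 ratio -1.42, and -0.81 with a pseudocount of 0.5). In both cases these were H19, Igf2 and Cdkn1c, with log2 ratios of 3.46, 3.36 and 3.96 at E10 and 2.66, 2.58 and 3.46 at E11. The Cdkn1c ratios rest on 5 and 6 YS transcripts, and with a pseudocount of 0.5 they were 2.36 and 2.22, below those of H19 (3.25 and 2.54) and Igf2 (3.11 and 2.42). Since the members were chosen with such values known, nothing is read from these shares. Beside tissue of origin, E10 IAHC and YS cells differ in the sort on CD31, in the choice of IAHC cells by Gpr56 transcripts, and in staining, inside the aorta for IAHC cells but after digestion for the yolk sac. These cannot be told apart.

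Levels at the 2 stages come from tables thinned separately, and the median of all genes moved with stage by a log2 ratio of -0.19 in non-HE, -0.24 in HE, -0.34 in EHT and -0.36 in c-kit+ CD31+ IAHC cells, so stage ratios are read against those medians. In HE cells, H19 had a log2 ratio of E11 to E10 of 0.48, Igf2 of 0.13, Cdkn1c of -1.4 and Nnat of -1.79 (-0.93 with a pseudocount of 0.5, from 6 and 41 transcripts). In non-HE cells Igf2 had -0.66, Mest -0.88 and Plagl1 -0.79. H19 and Cdkn1c in HE cells thus lay on opposite sides of the median. In c-kit+ CD31+ IAHC cells, the sort both stages have, H19 was 25.3 at E10 and 26.2 at E11, Igf2 19.36 and 18.98, and Cdkn1c 2.37 and 2.48, with log2 ratios of 0.05, -0.03 and 0.06. Over both E11 sorts the ratios were -0.10, -0.18 and 0.03. None of the 5 members with a level of 0.5 or more moved 2-fold in the shared sort, beside 4.02% of 2487 genes higher and 4.06% lower. Below that level, Nnat had 0 transcripts in 73 E10 cells and 71 in 201 E11 cells, and Plagl1 had 5 and 70.

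Genes around the set were read from lists. Of 20 genes of the insulin-like growth factor pathway, Igfbp4, a secreted binding protein, was the most abundant, with 9.61 in E10 non-HE, 8.88 in HE, 6.88 in EHT, 5.85 in IAHC and 1.288 in YS cells. The clearance receptor Igf2r, itself imprinted, fell from 2.47 in E10 HE cells to 0.457 in IAHC and 0.118 in YS cells. The ligand gene Igf1 was at most 0.733 and the receptor gene Igf1r at most 1.16 in any population, so Igf2 transcripts outnumbered those of both in all AGM populations. Of 40 other imprinted genes, 5 had no transcript in any population. Gnas was the most abundant, from 18.6 in E10 non-HE to 2.22 in E10 YS cells, and Kcnq1ot1, the non-coding RNA of the domain that holds Cdkn1c, reached 14.5 in E10 non-HE cells, 3.96 in E10 HE and 0.900 in E11 non-HE cells.

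Whole clusters gave the only replicated comparison. Of 109 wIAHC libraries, 57 held at least 5000 transcripts, of which 21 were ventral and 7 dorsal at E10, and 17 ventral and 12 dorsal at E11. By their column names, E10 libraries form 1 set and E11 libraries 2. They are called collection sets here, though no label says what they are. Each set holds 1 stage, so stage and set cannot be told apart. Clusters of 1 embryo are not marked, so the p-values may be too small. Haemoglobin genes took over 5% of transcripts in 4 E11 libraries of set 2, up to 27.5%, and results are also given without these. In a bulk sample, more cells of a kind and more RNA per cell cannot be told apart.

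H19 in ventral wIAHCs ranged from 0 over a median of 6.87 to 16.7 transcripts per 5000 at E10 and from 6.63 over 21.3 to 28.7 at E11. In dorsal wIAHCs it ranged from 4.741 over 11.7 to 24.97 at E10 and from 10 over 26.8 to 71.5 at E11. The groups overlapped, yet 16 of 17 ventral and 11 of 12 dorsal E11 libraries lay above the E10 median of their side. Igf2 ran from 2.52 over 9.43 to 16.4 and from 5.42 over 14.9 to 26.6 in ventral E10 and E11 wIAHCs. In dorsal ones it ran from 7.10 over 10.3 to 16.3 and from 2.96 over 24.1 to 41.3. Again 15 of 17 and 11 of 12 E11 libraries exceeded the E10 median. Cdkn1c ran from 0 over 0.838 to 6.31 and from 0.532 over 2.73 to 6.12 in ventral, and from 0.487 over 1.51 to 3.73 and from 2.06 over 3.12 to 4.714 in dorsal wIAHCs, with 15 of 17 and 12 of 12 E11 libraries above the E10 median.

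**Figure D4:**
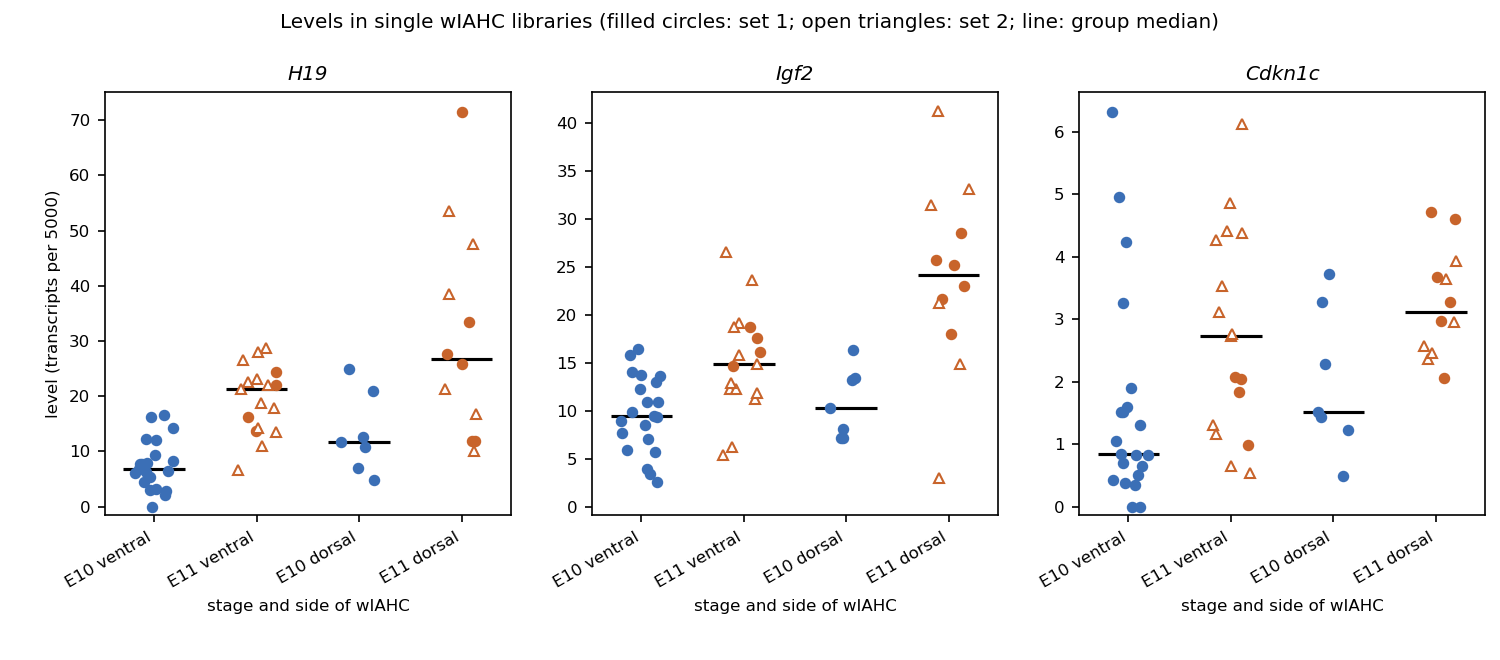
Level (transcripts per 5000) of H19, Igf2 and Cdkn1c in each of the 57 wIAHC libraries by stage and side; filled circles are the first and open triangles the second collection set of a stage, and lines are medians. The H19 medians are 6.87 and 21.3 in ventral and 11.7 and 26.8 in dorsal wIAHCs at E10 and E11.

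In the fit across all genes (edgeR, 260 genes after the filter on low counts, Benjamini-Hochberg), 3 of the 10 members had enough transcripts to be tested: H19, Igf2 and Cdkn1c. In ventral wIAHCs all 3 were higher at E11 with an adjusted p under 0.05, as were 18.1% of the 260 genes. The balance of all genes depends on scaling: 47 were higher and 34 lower, but with library totals in place of TMM 30 were higher and 56 lower, the 3 members again among those higher. The log2 difference was 1.43 (SE 0.26, adjusted p = 1.83e-05) for H19, 0.77 (SE 0.20, adjusted p = 0.00166) for Igf2 and 1.19 (SE 0.33, adjusted p = 0.00405) for Cdkn1c. In dorsal wIAHCs 2 of 3 were higher at that threshold, beside 7.31% of the 260 genes: H19 by 1.5 (SE 0.40, adjusted p = 0.00673) and Igf2 by 1.4 (SE 0.30, adjusted p = 0.00149), while Cdkn1c had 1.07 (SE 0.50, adjusted p = 0.171). These adjusted p-values support nothing about the set, since its members were chosen with results in view. With the E11 set 1 libraries alone, the ventral Cdkn1c difference was 0.43 (adjusted p = 0.697), and with set 2 alone it was 1.43 (adjusted p = 0.00229). H19 set means were 19.05 and 19.55 in ventral and 30.4 and 31.3 in dorsal E11 wIAHCs. Without the 4 haemoglobin-rich libraries the stage differences of H19 were 1.38 and 1.71 and those of Igf2 0.79 and 1.56, ventral and dorsal, all past the threshold. With a minimum of 10000 transcripts, which leaves 5 dorsal libraries at each stage, the dorsal differences of H19 (1.5) and Igf2 (1.19) no longer passed, with adjusted p of 0.121 and 0.082.

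Between sides, edgeR called no gene at either stage, 0.0% of 260, with 20 genes at E10 and 23 at E11 under an unadjusted p of 0.05; DESeq2 also called 0, with 23 and 25. Dorsal levels of Igf2 at E11 were nevertheless the higher ones in the medians above, with a log2 difference to ventral of 0.74 (SE 0.22, adjusted p = 0.214). That gene alone passed once the 4 haemoglobin-rich libraries were left out, at 0.83 (adjusted p = 0.0439; over all alternatives the adjusted p ran up to 0.762). For H19 the E11 side difference was 0.77 (SE 0.29, adjusted p = 0.259). The interaction of stage and side was called for no gene by edgeR, 0.0% of 260 (26 at an unadjusted p under 0.05; DESeq2 0, with 27). For H19 it was 0.10, for Igf2 0.63 (adjusted p = 0.493) and for Cdkn1c -0.11, so a stage difference that depends on side was not shown.

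Without a filter on low counts, all 10 members entered a fit of 13627 genes. In ventral wIAHCs 3 of the 10 then passed in either direction, beside 2.27% of all genes: H19 was higher at E11 by 1.2 (adjusted p = 1.47e-09) and Nnat by 1.8 (adjusted p = 0.00492), and Dlk1 was lower, at -1.85 (adjusted p = 0.000617). In dorsal wIAHCs H19 alone of the 10 passed, at 0.97 (adjusted p = 0.0386), beside 0.785% of all genes. Ventral Igf2 had 0.57 (adjusted p = 0.0594) and Cdkn1c 0.95 (adjusted p = 0.0555) in that fit. Dorsal Igf2, past the threshold in the main fit, had 0.83 (adjusted p = 0.137). The mean ventral Nnat level was 0.247 at E10, and at E11 it was 0.255 in set 1 and 0.872 in set 2, so the rise sits in set 2. Nnat was found in 9 of 21 ventral E10 and 11 of 17 ventral E11 libraries, with 17 and 37 transcripts, and Dlk1 in 15 of 21 and 8 of 17, with 118 and 17. Of the 118 Dlk1 transcripts, 32 came from 1 library, and the median ventral Dlk1 level was 0.368 at E10 and 0 at E11. Plagl1 and Mest had negative and Grb10 and Meg3 positive values at both sides, none of them past the threshold.

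**Figure D5:**
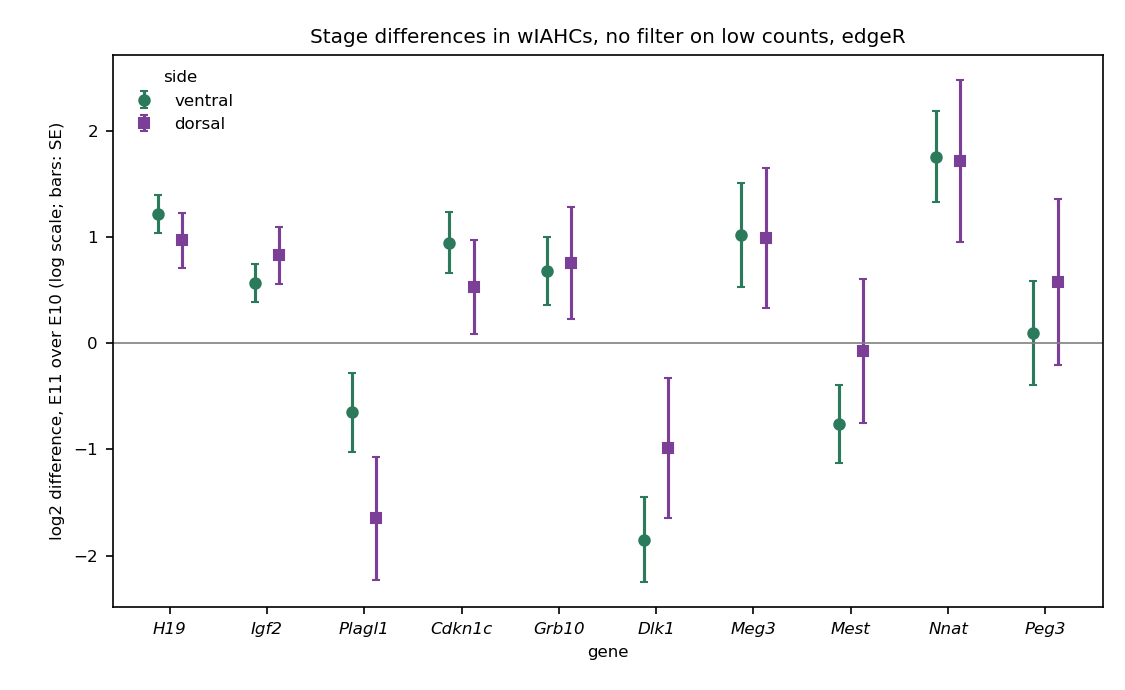
Log2 difference of E11 over E10 wIAHCs for the 10 genes without a filter on low counts, ventral (circles) and dorsal (squares), with standard errors from edgeR. H19 lies at 1.2 and 0.97, Nnat at 1.8 and 1.72, and Dlk1 at -1.85 and -0.99.

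The stage difference of H19 in wIAHCs stands beside a log2 ratio of 0.05 in single c-kit+ CD31+ IAHC cells, where the median of all genes was -0.36; what sets the readouts apart was not tested. Other values moved with stage in wIAHCs as well. The median share of haemoglobin transcripts was 0.0138% in ventral and 0.0301% in dorsal wIAHCs at E10, and 0.303% and 0.190% at E11. By E11 collection set it was 0.0532% and 0.0388% in set 1, and 0.334% and 0.432% in set 2. The 15 mesenchymal markers had medians of 0.417 and 0.574 at E10 (11 and 10 present) and 1.56 and 2.34 at E11 (13 present, Sox11 highest, Pdgfrb and Lum at 0). The 10 endothelial markers had 4.69 and 3.79 at E10, with Cdh5 and Egfl7 highest, and 5.93 and 9.42 at E11. Their part in the H19, Igf2 and Cdkn1c differences was not tested. H19 made up 44.7% of the H19 and Igf2 transcripts in ventral and 49.1% in dorsal E10 wIAHCs, and 55.0% and 56.4% at E11.

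Among the 40 other imprinted genes 2 were tested in wIAHCs, Gnas and Kcnq1ot1, and among the 20 growth factor pathway genes 1, Igfbp4; none passed in any of the 5 comparisons by edgeR. For E11 against E10 ventral wIAHCs their log2 differences were -0.15, 0.30 and -0.21. Without the filter, 29 of the 40 and 18 of the 20 were tested; in ventral wIAHCs Asb4 was higher at E11 by 2.26 (adjusted p = 0.00205) and Igf1 lower, at -1.66 (adjusted p = 0.0410).

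The genes whose levels over the 13 populations were most like those of a member were sought among 4203 genes with a level of 0.5 or more in some population. For Igf2 these were Cdh5 (Pearson's r of log2 levels 0.995), H19 (0.989) and Fn1 (0.985), and for H19 they were Igf2 (0.989), Cdh5 (0.986) and Vwf (0.985). Each thus had the other and the endothelial cadherin gene among its nearest 3. For Mest they were Myl12a (0.981), Unc5b (0.971) and Icam2 (0.969), for Plagl1 Utrn, Ppp1r15a and Armcx4 (0.983 each), and for Nnat Tubb2b (0.923), Asb4 (0.921) and Tcf4 (0.921). For Cdkn1c they were Smo (0.940), Fn1 (0.907) and Gng11 (0.899). The ranking is unstable: by Spearman's rho, 1 of the 3 stayed for H19 and none for Igf2, Cdkn1c and Plagl1.

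Promoters are shown for the CpG content of the 3 members with the highest levels in E10 non-HE cells among those with a promoter window, since imprinted control often works through methylated CpG. RefSeq (GRCm38.p6) had a window from before to just after the start for 8 of the 10 members, 15 windows in all, and none for H19 and Cdkn1c. The 15 windows held between 1 and 45 CG pairs (the letters CG, the same on both strands), the most in Grb10, and 13 of them held at least the median of all 32851 promoter windows, which is 7.0; 94.6% of all windows hold at least 1. The part before the start is printed 5′ to 3′ for the start richest in CG of each gene, with CG in capitals. A count of CG is a description and no measure of methylation. Igf2 (22 CG, a count reached by 14.8% of promoter stretches of the same length), Mest (14 CG, reached by 29.4%) and Plagl1 (19 CG, reached by 20%) follow.
Igf2 (chr7:142658805-142659054, minus strand): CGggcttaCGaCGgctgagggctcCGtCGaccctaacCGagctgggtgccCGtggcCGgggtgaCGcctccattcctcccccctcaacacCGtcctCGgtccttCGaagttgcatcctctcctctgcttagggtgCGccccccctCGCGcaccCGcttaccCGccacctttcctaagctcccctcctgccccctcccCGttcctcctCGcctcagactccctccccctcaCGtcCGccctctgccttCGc
Mest (chr6:30737800-30738049, plus strand): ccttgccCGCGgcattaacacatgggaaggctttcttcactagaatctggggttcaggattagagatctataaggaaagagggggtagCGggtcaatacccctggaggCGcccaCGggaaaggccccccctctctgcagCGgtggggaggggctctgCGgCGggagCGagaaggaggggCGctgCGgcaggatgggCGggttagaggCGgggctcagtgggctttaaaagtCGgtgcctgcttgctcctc
Plagl1 (chr10:13090582-13090831, plus strand): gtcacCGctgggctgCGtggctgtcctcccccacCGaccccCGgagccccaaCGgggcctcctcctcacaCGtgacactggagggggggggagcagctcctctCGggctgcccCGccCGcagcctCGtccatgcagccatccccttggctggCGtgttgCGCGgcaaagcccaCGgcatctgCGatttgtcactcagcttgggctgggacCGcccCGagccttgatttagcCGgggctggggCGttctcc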

How the data were processed

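The authors deposited transcript counts from CEL-Seq molecular identifiers of 4 bases (reads aligned with BWA 0.6.2-r126 to mm10, per the labels). The deposited single-cell counts are down-sampled to 3000 (E10) or 5000 (E11) transcripts a cell with 0.1 added, which was subtracted; the deposited wIAHC counts are estimated counts corrected for identifier collisions, and were rounded for the tests. Entries were matched by symbol, and gene positions read from GENCODE M21 (GRCm38). The named genes are the 10 members, chosen with the other lists when earlier results of these data were known. Levels used summed cells with exact Poisson intervals, and shares used exact binomial intervals. wIAHC libraries with at least 5000 transcripts were fitted in 4 groups of stage and side with edgeR 4.0.16 (TMM, filterByExpr, quasi-likelihood, two-sided) in R 4.3.3 over all genes but the spike-ins; a run on simulated counts was checked first. Python 3.11.15, numpy 2.4.6, pandas 2.3.3 and scipy 1.17.1 did the rest. Alternatives were other depth minimums, DESeq2 1.42.0, library totals, no filter, undone collision correction, single sorted or collection sets, and leaving out haemoglobin-rich libraries or cells with mesenchymal or macrophage markers. Libraries under the minimum were left out of the main tests.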

Additional observations from a re-analysis of the deposited data

Results flagged for a closer look

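Among 30 groups of 4 to 10 values (sorted sets of the E11 IAHC sorts and dorsal E10 libraries, for each gene), 4 held a value far from the others. Groups of normal values of equal spread pass this cut about 1 time in 20. That rate need not hold for sparse counts, so nothing is read from the number found. In c-kit+ IAHC cells, Dlk1 was 0 in 1 set of 26 cells beside 0.267 in the next of 5 sets. Grb10 was 1.73 in 1 set of 26 cells beside 1.00 in the next. In c-kit+ CD31+ IAHC cells, Nnat was 0.678 in 1 set of 59 cells beside 0.225 in the next of 4 sets, and Plagl1 was 0.449 in 1 set of 49 cells beside 0.326.

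The 52 wIAHC libraries under the depth minimum, used in part only by the alternative with a minimum of 2000, held 100355 transcripts in all, so 3 transcripts are a level of 0.150. All 10 genes lay above that level. H19 had 25.5, Igf2 19.49 and Cdkn1c 3.02 transcripts per 5000. Grb10 had 1.301, Nnat 1.102 and Mest 0.9499, and Dlk1 had 0.4998, Meg3 0.350, and Peg3 and Plagl1 0.300 each.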

How the results depend on the processing

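No paired analysis was possible because the labels do not say which wIAHCs, or which sorted cells, came from the same embryo. Stage differences were called for 81 genes in ventral and 24 in dorsal wIAHCs. With a minimum of 10000 transcripts these counts were 132 and 3, and without a filter on low counts they were 310 and 107. With library totals, where the median of all genes moved by -0.13 and -0.16, the dorsal count was 40 (16 higher and 24 lower, beside 19 and 5) and the 86 ventral genes held 30 higher and 56 lower, beside 47 and 34, and ventral wIAHCs with the E11 set 1 alone gave 44. Side differences, 0 in the main fits, were 8 at E10 and 12 at E11 without a filter, and 1 at E11 both without haemoglobin-rich libraries and with set 1 alone; the interaction gave 21 without a filter. The other settings kept each count within 1.5 times the main one. The causes were not tested.

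For H19, Igf2 and Cdkn1c, 116 of 127 differences kept their direction and their side of the threshold, 6 no longer passed, and 1 newly passed. The other 4, past it in no setting, changed sign: the H19 interaction of 0.10 was -0.45 with a minimum of 2000 transcripts and -0.25 without a filter, where the Cdkn1c side difference at E11 of 0.34 was -0.02, and the Cdkn1c interaction of -0.11 was 0.69 with set 1 alone.

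Of the level values, 48.5% of single sorted sets and 76.2% of values with a set left out lay in the 95% interval of all cells, and 72.9% did without cells holding mesenchymal markers; all did without haemoglobin or macrophage-marked cells. At full E11 depth 74.4% of cell shares stayed in their interval. For the H19 share, 69.2% of cell medians and 53.3% of sets did. A pseudocount of 0.5 turned no sign of a ratio whose interval excludes 0, and put 32 of 170 ratios outside their interval. The rule on IAHC cells put 37 of 80 levels outside theirs.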
